A study of Mus musculus with 6 samples.

Results

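Of the genes of transforming growth factor beta (TGF-beta) signalling, the senescence table used here held 1 whose symbol begins with Tgfb, Smad or Zfyve. That gene was Tgfbr1 (Entrez gene 21812), 1 of 88 genes in the table, and 0 symbols began with Smad or Zfyve. The rule picks members by name, but it was set with earlier results of these data known. The label of a receptor and SMAD gene group is carried by the receptor alone. The RNA came from mouse brain, in 3 samples labelled young and 3 labelled aged, with neuroblast given as the cell type of all 6. The sources used here do not give the strain, sex, ages or numbers of animals. The labels of all samples also carry a tamoxifen treatment and a measurement of tdTomato-labelled NK cells, which they do not relate to the RNA. All 88 genes carried the KEGG pathway term for cellular senescence in the table's own annotation. None of 36 marker genes of 9 brain and immune cell types, neuroblasts included, was among the 88 genes, so the label was not checked against markers. In a table limited to that term, the absence of markers is no measure of the cells present.

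TGF-beta ligands bind a type II receptor, which recruits and phosphorylates the type I receptor encoded by Tgfbr1, also called ALK5. The type I receptor is a serine/threonine kinase that phosphorylates SMAD2 and SMAD3, and these enter the nucleus with SMAD4. In many epithelial cells this route raises the cyclin-dependent kinase inhibitors Cdkn2b and Cdkn1a and lowers Myc, a route that the KEGG pathway of cellular senescence includes. In brain, microglia, astrocytes and vascular cells are among the cells known to respond to TGF-beta.

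The make-up of the table and 1 library bear on each value that follows. Shares of all genes and ranks given below are within genes that carry the senescence term. The aged mean exceeded the young mean in all 88 genes, so a gene that was low in some aged samples could be in the table only where another aged sample was high. Aged replicate 1 stood apart, with a correlation of its log2 values with the other 5 libraries of 0.723 to 0.844 across 66 genes, whereas the other 5 libraries correlated with each other at 0.930 or more. Library depth is unknown. Since the labels name no separate animals or cultures, p-values measure only how far these samples spread, which may be a technical spread.

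The sequence before the transcription start of Tgfbr1 is shown because its base composition differs from that of the transcript, whose GC content is set beside the values further on. The 250 bases lie at chr4:47352972-47353221 on the plus strand in the RefSeq table for GRCm38.p6, which lists 2 starts for the gene, and they end at the base before the start of the annotated gene. The sources used here do not name the build behind the deposited values. Capitals mark matches to the GC box GGGCGG and to the CCAAT box CCAAT, searched on both strands with no overlap between them.
Tgfbr1: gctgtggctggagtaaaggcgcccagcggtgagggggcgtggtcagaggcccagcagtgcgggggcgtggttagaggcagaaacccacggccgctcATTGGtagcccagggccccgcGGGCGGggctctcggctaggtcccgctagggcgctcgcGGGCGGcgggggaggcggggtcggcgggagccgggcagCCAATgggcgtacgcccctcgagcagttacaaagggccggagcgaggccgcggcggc

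This window was 74.8% G or C and held 29 CpG dinucleotides, against medians of 52.4% and 6 over all 32851 promoter windows of the same length. It held 2 GC boxes and 2 CCAAT boxes, which 32.7% and 33.8% of all windows hold at least once. The SMAD-binding motif CAGAC was not among its letters on either strand, and 42.2% of all windows hold it.

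The comparison asked whether the receptor gene differed between aged and young brain. Tgfbr1 was listed at an expression signal of 60.81, 40.36 and 34.37 in young replicates 1 to 3. In aged replicates 1 to 3 it was listed at 163.87, 28.58 and 23.04. Aged replicate 1 lay above all young samples and aged replicates 2 and 3 lay below all of them, so the groups overlapped with the aged samples at both ends. In order of level, aged replicate 1 was 2.69 times the next sample, young replicate 1, which was 1.51 times young replicate 2. From young replicate 2 down to aged replicate 3, neighbours differed by ratios of 1.17 to 1.24, which is less than the ratio between the 2 highest young samples.

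**Figure D1:**
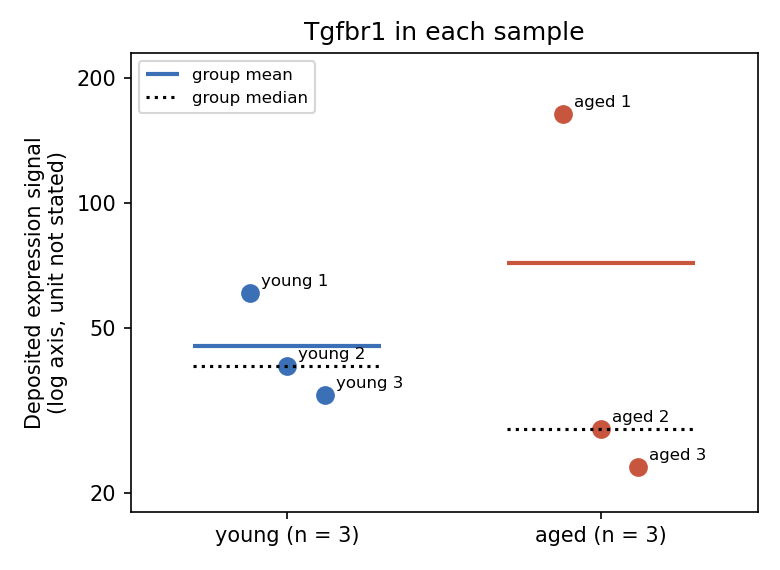
Deposited expression signal of Tgfbr1 (vertical log axis, unit not stated) in each young and aged sample (points), with the group mean (solid line) and median (dotted line). The aged mean lies above the young mean while the aged median lies below the young median, because aged replicate 1 is at 163.87 and the other aged samples are at 28.58 and 23.04.

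The direction of the group difference depended on how the 3 aged samples were averaged. The aged mean was 71.8 ± 79.8 and the young mean 45.2 ± 13.9 (SD, n = 3 each), a ratio of 1.59. The aged median was 28.58 and the young median 40.36, so the median lay on the other side. Of 66 genes kept by a filter (mean signal 1 or higher), 14 had a higher aged mean and a lower aged median, or 21.2%. Aged replicates 2 and 3 had a mean of 25.8, or 0.571 times the young mean. In bulk RNA of this kind, fewer cells that carry a transcript and less transcript per cell cannot be told apart.

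The difference in Tgfbr1 did not pass the test. With limma on log2(signal + 1) over the 66 genes, a scale that understates changes of low values, its log2 change was 0.12 (SE 0.713, 95% interval −1.55 to 1.80), with a Benjamini-Hochberg adjusted p of 0.994 and a higher value in 1 of 3 aged samples. The exact two-sided permutation test of its mean log2 difference gave p = 1.0, where 3 against 3 samples cannot go below 0.1. In that limma fit 0 of 66 genes (0.0%) passed a 5% false discovery rate, and 3 had an unadjusted p under 0.05. The interval for Tgfbr1 therefore held values from a fall to a rise of more than a whole log2 unit, and a difference of that size was not detectable with these samples.

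Without aged replicate 1, the log2 change of Tgfbr1 was −0.75 (SE 0.238, 95% interval −1.31 to −0.19), lower in 2 of 2 aged samples. Its limma adjusted p was then 0.0621, above the 5% threshold, and the unadjusted p was 0.0151. In that fit 15 of 66 genes passed (22.7%), of which 1 (1.52%) was lower in the aged samples. The exact two-sided permutation p was 0.2, the smallest that this test as run gives for 2 against 3 samples. Setting the medians of the 66 genes equal between libraries lowered every log2 change by 0.21, so that the value over all 6 samples became −0.08. With equal medians and without aged replicate 1 it was −0.99 (SE 0.224) and passed, with a limma adjusted p of 0.0318 (range over all its alternatives 0.0318 to 0.999). There 9 of 66 genes passed (13.6%) and 4 (6.06%) were lower. Those medians come from a table that holds only genes with the aged mean on top, and how far this sets the shift was not tested.

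**Figure D2:**
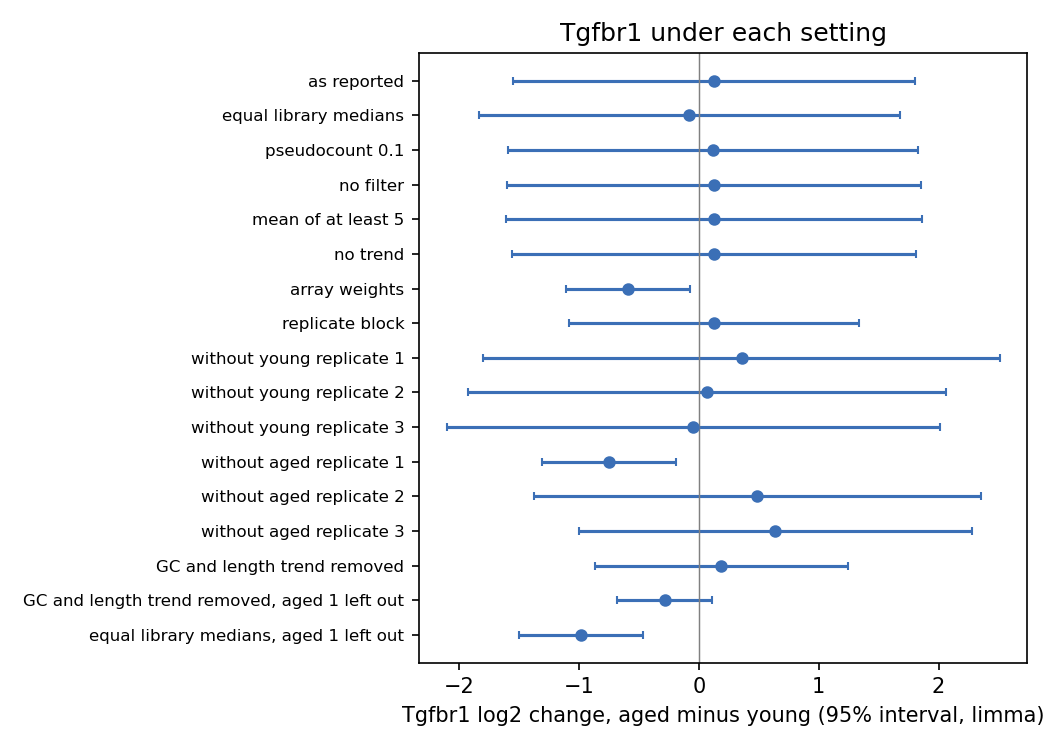
Log2 change of Tgfbr1, aged minus young, on the log2(signal + 1) scale (horizontal axis; point and 95% limma interval) as reported and under each alternative setting (rows). The interval lies below 0 with array weights, without aged replicate 1, and with equal medians and that replicate left out, and it spans 0 in the other settings.

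The authors' deposited table gave a different account of the same gene. It listed Tgfbr1 with a log2 ratio of aged to young of 0.62 and with a p-value and q-value of 0. In the authors' deposited table, 3 of 85 genes with a q-value had one listed at 0, namely Il1a, Cdkn1a and Tgfbr1. A q-value under 0.05 was listed in the authors' deposited table for 54 of the 85, or 63.5%. The sources used here do not name the test behind these values. For Tgfbr1 the log2 of the ratio of group means was 0.67, near the deposited ratio, while the mean of log2 values differed by 0.12.

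Tgfbr1 was among the genes with the widest spread between aged samples. Its aged replicate 1 exceeded the mean of aged replicates 2 and 3 by 2.63 on the log2(signal + 1) scale, the third highest of 66 genes after Il1a and Myc, where the median gene differed by −0.13. The SD of its log2 values was 1.52 in the aged samples, against a median of 0.49 over the 66 genes, and 0.42 in the young samples, against a median of 0.23. The same order of samples, with aged replicate 1 above and aged replicates 2 and 3 below all young samples, was found in 6 of 66 genes (9.09%). They were Tgfbr1, Il1a, Myc, Gadd45b, Pik3r1 and Zfp36l2. Il1a and Pik3r1 were named for their likeness to Tgfbr1 in these samples, and Zfp36l2 after its values were seen. The reverse order was found in 21 (31.8%).

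The transcript of Tgfbr1 is long and poor in G and C beside the other genes. Its longest coding transcript in GENCODE M21 has 5756 bases and 41.0% GC, against medians of 2449 bases and 51.6% over the 62 tested genes with such a transcript. Of these, 5 had a lower GC content and 9 a longer transcript. Across the 62 genes, the excess of aged replicate 1 over the other aged samples was lower at higher GC content (rho by Spearman −0.553, across genes, which are not independent). This trend was not particular to that library. The excess of young replicate 1 over the other young samples had a rho of −0.551 with GC content. For the difference of aged replicates 2 and 3 from the young mean, rho was 0.587. That difference shares aged replicates 2 and 3, with opposite sign, with the excess of aged replicate 1. The limit of the table to genes with a higher aged mean also links the pair. Its rho is therefore not separate from the −0.553. For the excess of aged replicate 1, a linear fit on GC content and log2 length gave 1.14 for Tgfbr1, where 2.63 was measured. For the difference of aged replicates 2 and 3 from the young mean, the fit gave −0.23 where −0.75 was measured. In both cases the measured value of Tgfbr1 lay farther from 0 than the fitted one. By the size of that gap Tgfbr1 ranked 10 and 8 among the 62 genes, so other genes lay farther from their fitted values. With each library's trend on GC content and length removed, the log2 change without aged replicate 1 was −0.29 (SE 0.159, limma adjusted p = 0.224), in a fit where 6 of 62 genes (9.68%) passed. That trend was fitted with Tgfbr1 included. Its removal kept the mean of each library, so −0.29 is not the gap between measured and fitted values, which was −0.52.

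**Figure D3:**
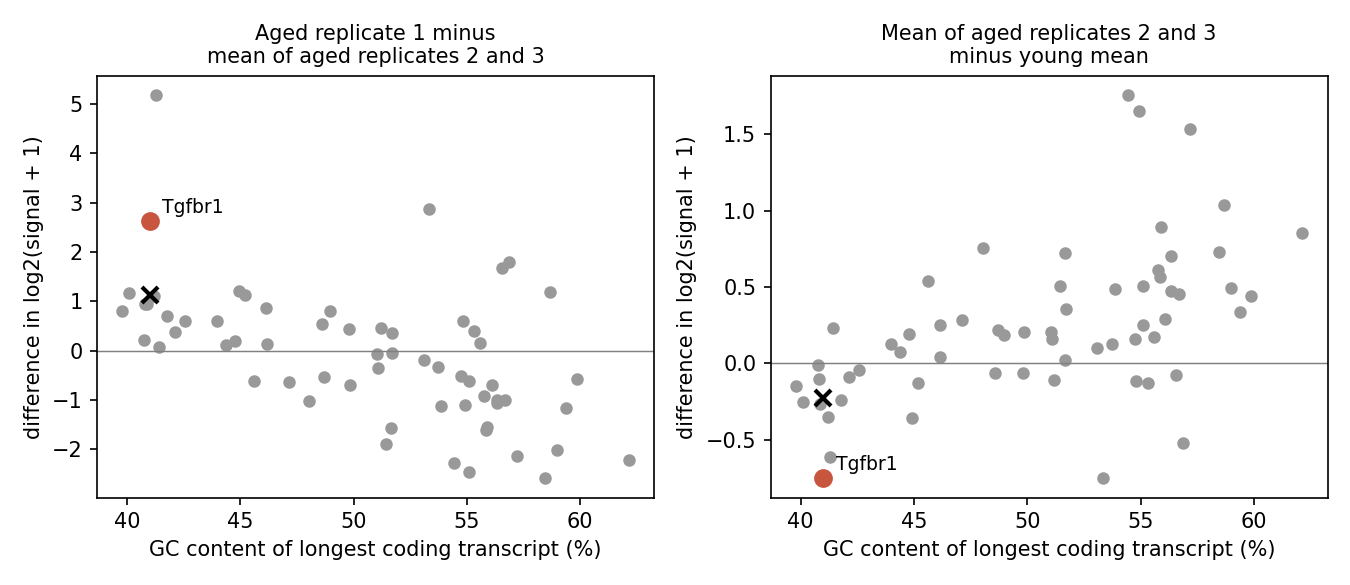
GC content of the longest coding transcript in percent (horizontal axes) against the difference in log2(signal + 1) (vertical axes) for 62 genes (grey points), for aged replicate 1 less the average of the other aged samples (left) and for that average less the young mean (right). Tgfbr1 is the red point, at 2.63 and −0.75, and the cross is the value fitted to it from GC content and length, at 1.14 and −0.23.

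Other genes of the pathway were looked up in lists of ligands, receptors, SMAD partners, target genes and non-SMAD branches. Of 78 listed genes, 13 were in the table and 12 had a mean signal of at least 1. None of 18 ligand and ligand-handling genes and none of 11 further receptors was among them. The limit of the table to genes with the term for cellular senescence bears on these absences. Over all 6 samples limma called 0 of the 12 in either direction (0.0% of all genes), and their median log2 change was 0.10, against 0.12 over all 66. Without aged replicate 1 it called 3 of the 12, with Cdkn1a and Cdkn2b higher and Myc lower. Of all 66 genes 21.2% were then called higher and 1.52% lower, the latter being Myc alone. The median of the 12 was then 0.32, against 0.20 over all 66. All 3 are from the list of target genes, and the restriction of the table to genes with a higher aged mean bears on the direction of the 2 that were higher. With equal medians, 7 of the 12 went from a log2 change above 0 to one below 0 over all 6 samples (Rbl1, E2f4, Myc, Gadd45a, Gadd45b, Mapk11 and Mapk13).

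Cdkn2b encodes p15, an inhibitor of the cyclin D kinases that TGF-beta is known to raise. It was listed at 1.37, 1.16 and 0.61 in the young and at 0.29, 3.63 and 2.04 in the aged samples. Aged replicate 1 was the lowest of the 6 and aged replicates 2 and 3 the highest, the opposite of the order of Tgfbr1. Its log2 change was 0.38 (SE 0.465) over all samples and 0.89 (SE 0.259, limma adjusted p = 0.0473) without aged replicate 1. Cdkn1a, which encodes p21, an inhibitor of several cyclin-dependent kinases, was listed at 30.75, 26.97 and 21.87 in the young and at 17.96, 94.63 and 88.04 in the aged samples. It had the same order as Cdkn2b, with a log2 change of 1.00 (SE 0.613) over all samples and 1.76 (SE 0.158, limma adjusted p = 0.000511) without aged replicate 1.

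Myc, a growth-promoting transcription factor that TGF-beta is known to lower in epithelial cells, followed the order of Tgfbr1. It was listed at 4.73, 4.51 and 3.97 in the young and at 22.39, 2.83 and 1.67 in the aged samples. Its log2 change was 0.20 (SE 0.755) over all samples and −0.75 (SE 0.224, limma adjusted p = 0.0495) without aged replicate 1. That value equals the one of Tgfbr1 to 2 decimals, and the difference between passing and not passing was not tested. Gadd45b, a stress-response gene that SMAD proteins can induce, was listed at 6.11, 7.34 and 7.06 in the young and at 17.90, 5.19 and 3.78 in the aged samples. Without aged replicate 1 its log2 change was −0.52 (SE 0.208), which did not pass (limma adjusted p = 0.121). Over their alternatives the limma adjusted p ran from 0.0242 for Cdkn2b, 0.000175 for Cdkn1a, 0.0220 for Myc and 0.0304 for Gadd45b, up to 0.999 for each. With the GC and length trend removed and aged replicate 1 left out, Cdkn1a (log2 change 1.57) and Gadd45b (−0.90) passed, while Cdkn2b (0.56, SE 0.339) and Myc (−0.88, SE 0.216) did not, with limma adjusted p-values of 0.263 and 0.0522.

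The remaining target genes did not pass in either fit. The relatives Gadd45a and Gadd45g, both stress-response genes, had log2 changes of 0.08 (SE 0.305) and 0.25 (SE 0.278). The cytokine gene Il6 fell under the filter and was listed at 0.34, 0.27 and 0.22 in the young and at 1.63, 0.06 and 0.21 in the aged samples. As for Tgfbr1, aged replicate 1 held its highest value and aged replicates 2 and 3 its lowest. Aged replicate 3 (0.21) lay barely below young replicate 3 (0.22), however, so at these low values the order is not resolved.

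SMAD partners were represented by a pair of repressors. Rbl1, which encodes the pocket protein p107, and E2f4, a repressing E2F factor, are known to form a complex with SMAD3 at the Myc promoter. Rbl1 was listed at 3.65, 3.17 and 3.06 in the young and at 4.22, 3.25 and 2.83 in the aged samples. E2f4 was listed at 16.76, 19.77 and 20.88 in the young and at 14.25, 23.13 and 23.99 in the aged samples. Rbl1 was thus highest and E2f4 lowest in aged replicate 1. Their log2 changes were 0.04 (SE 0.236) and 0.06 (SE 0.270) over all samples and −0.09 (SE 0.189) and 0.29 (SE 0.144) without aged replicate 1. Among the non-SMAD branches, 3 genes of p38 kinases were in the table. Mapk12 was listed at 10.51, 13.04 and 15.76 in the young and at 2.60, 19.74 and 17.85 in the aged samples, with a log2 change of −0.31 (SE 0.656) that was 0.50 (SE 0.190) without aged replicate 1. The log2 changes of Mapk11 and Mapk13 were 0.12 (SE 0.340) and 0.05 (SE 0.288).

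**Figure D4:**
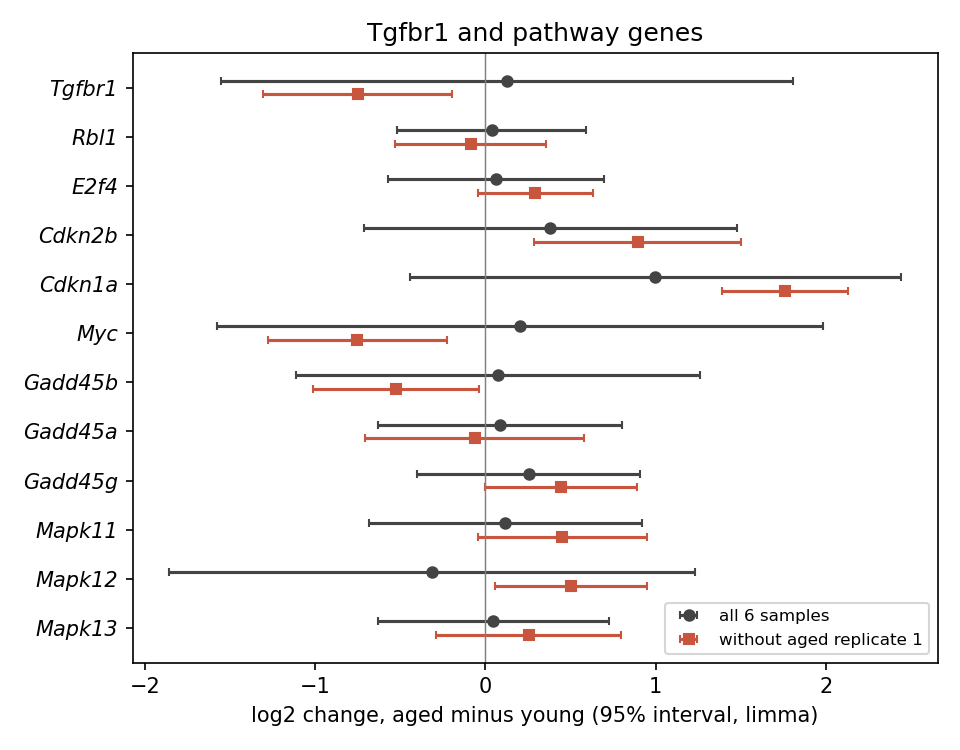
Log2 change, aged minus young, on the log2(signal + 1) scale (horizontal axis; point and 95% limma interval) for Tgfbr1 and 11 of the 12 tested pathway genes (rows), over all 6 samples (circles) and without aged replicate 1 (squares). Tgfbr1, Myc and Gadd45b lie near 0 over all samples and at −0.75, −0.75 and −0.52 without that replicate, while Cdkn1a and Cdkn2b lie at 1.76 and 0.89.

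The table's own annotation places Tgfbr1 in 12 KEGG pathways, the senescence pathway included. The TGF-beta signalling term was carried by 5 genes, Tgfbr1, Myc, Cdkn2b, E2f4 and Rbl1. Of these, Tgfbr1 and Myc had aged replicate 1 above and the other aged samples below all young samples, Cdkn2b and E2f4 had the reverse order, and Rbl1 had neither. Over all tested genes 9.09% had the order of Tgfbr1 and 31.8% the reverse, and the counts by term, with Tgfbr1 in each, are read beside these shares. Of 17 tested genes with the MAPK signalling term, 4 had the order of Tgfbr1 and 4 the reverse, and of 15 with the FoxO signalling term 3 and 4 did. Osteoclast differentiation, with 13 tested genes, had 3 and 4. Of 15 tested genes with the endocytosis term, 1 had the order of Tgfbr1 and 7 the reverse, and for Th17 cell differentiation the counts were 1 and 4 of 10. Relaxin signalling had 2 and 4 of 8 and Hippo signalling 2 and 2 of 7. The terms for cytokine receptors, adherens junctions and apelin signalling held 4 tested genes or fewer.

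The genes most like Tgfbr1 over the 6 samples were found by Pearson's r of log2(signal + 1) among the 65 other tested genes. They were Pik3r1 (r = 0.999), which encodes the p85-alpha regulatory subunit of PI3 kinase, Myc (0.975), the retinoblastoma gene Rb1 (0.969), the cytokine gene Il1a (0.962) and Rbl1 (0.960). Such values share the 6 libraries, aged replicate 1 foremost, and the median absolute r of the 65 genes was 0.828, so a high r was common here. Pik3r1 was listed at 16.85, 14.25 and 13.14 in the young and at 27.14, 11.96 and 10.54 in the aged samples. All 6 samples had the same order in Pik3r1 as in Tgfbr1 (Spearman's rho 1.0), and r was 0.997 without aged replicate 1. It was 0.999 over the 4 samples left without aged replicate 1 and young replicate 1, the samples farthest from the median of Tgfbr1. Pik3r1 was picked by its r over all 6 samples, so these values are no separate test. Without aged replicate 1 the median absolute r of the 65 genes was 0.730. An extreme r over those 4 samples was not limited to Pik3r1, as Mapk13 had −0.986 there and −0.557 over all 6. The span of Pik3r1 was smaller, with aged replicate 1 at 0.84 above its young mean on the log2 scale, against 1.88 for Tgfbr1. Without aged replicate 1 the log2 change of Pik3r1 was −0.36 (SE 0.169, limma adjusted p = 0.178, and 0.0445 to 0.999 under the alternatives). With the GC and length trend removed as well, the direction without aged replicate 1 turned for 3 of these genes. The values were 0.036 (SE 0.108) for Pik3r1, 0.057 (SE 0.112) for Rb1 and 0.30 (SE 0.0895) for Rbl1. None of these passed (limma adjusted p = 0.778, 0.697 and 0.0826). Trend removal kept the mean of each library. For Pik3r1 and Rb1 the measured changes (−0.36 and −0.35) lay below those fitted from GC content and length (−0.16 and −0.17). For Rbl1 the measured change lay above the fitted one (−0.087 against −0.16). Over the same 4 samples, r was 0.985 for Myc, 0.802 for Rb1, 0.824 for Il1a and 0.629 for Rbl1.

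The genes most opposed to Tgfbr1 were Rela (r = −0.989), which encodes the p65 subunit of NF-kB, the MHC class I genes H2-T22 (−0.983) and H2-D1 (−0.980), Mapk12 (−0.979) and E2f4 (−0.975). Rela was listed at 49.55, 68.84 and 71.96 in the young and at 34.73, 76.80 and 81.75 in the aged samples, which is the order of Tgfbr1 reversed (Spearman's rho −1.0). Its log2 change was −0.05 (SE 0.389) over all samples and 0.33 (SE 0.174) without aged replicate 1. Among the 65 genes, 14 had an r above 0.9 and 11 an r below −0.9. For comparison, Gm8909, with the smallest p of the whole table, had each aged sample higher than every young one. Its limma adjusted p was 0.444, at a log2 change of 1.43 (SE 0.381).

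**Figure D5:**
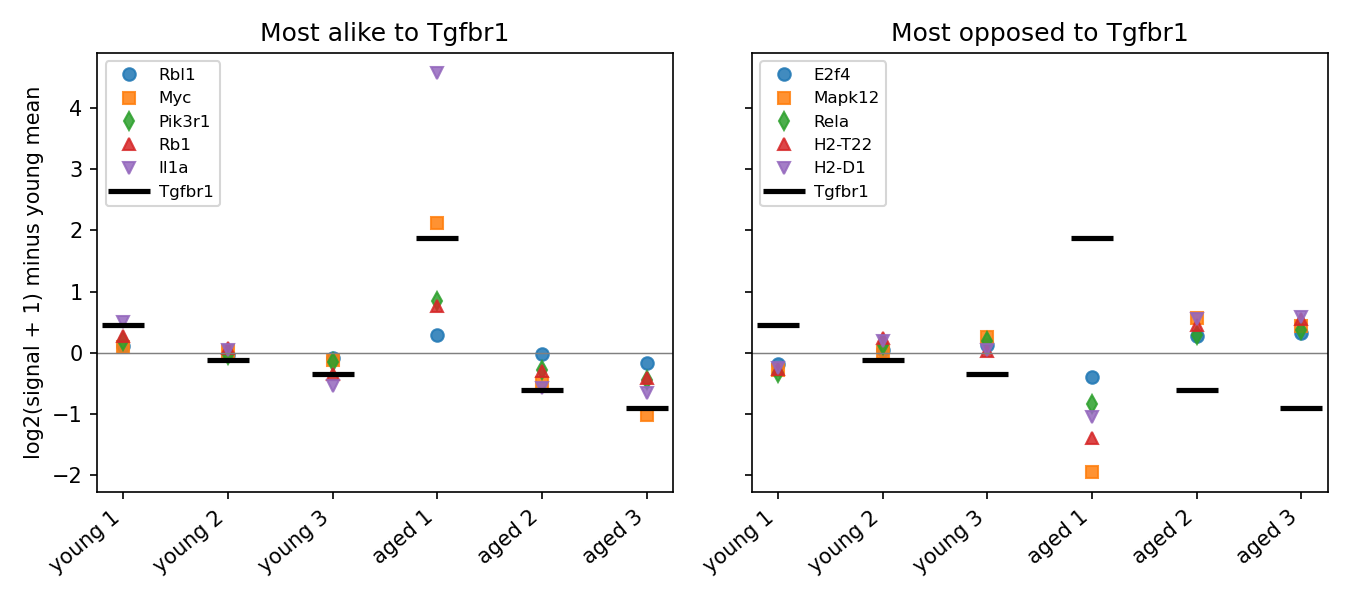
Log2(signal + 1) minus the young mean of each gene (vertical axes) in each sample (horizontal axes) for the 5 genes most alike to Tgfbr1 (left) and the 5 most opposed (right), with Tgfbr1 as black bars. The largest departures of these genes are in aged replicate 1, where Tgfbr1 is at 1.88 and Pik3r1 at 0.84, and the opposed genes lie below 0 there and above 0 in the other aged samples.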

How the data were processed

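Per the labels' protocols, brain tissue was ground, RNA was taken up with Trizol, and mRNA purified on oligo(dT) was sequenced. The table the authors deposited gives 1 expression signal for each gene in each sample. The sources used here do not name its unit, aligner or build. Per the file headers, it also gives a log2 ratio, a p-value and a q-value, all by the authors. A second table, of cell cycle genes, was not used. Groups and replicate numbers came from the titles.

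The 66 of 88 genes whose mean signal was 1 or higher were fitted as log2(signal + 1) with limma 3.58.1 in R 4.3.3 (eBayes with trend, no covariate, Benjamini-Hochberg over the table). The code was tested on simulated data with 3 samples in each group, so the fits with a library left out were not simulated. Alternatives were equal library medians, pseudocount 0.1, other filters, no trend, array weights, a replicate block and each library left out. Added after seeing the data were GC and length trend removal (GENCODE M21, matched by Entrez ID for 80 of 88 genes) and equal medians, without aged replicate 1. Trend removal kept the mean of each library. Named genes were Tgfbr1, pathway list genes, the 5 most like and 5 most opposed, and the smallest p. Of the pathway list genes, 1 is counted but not reported here by name. The members and lists were chosen with earlier results of these data known. Python 3.11.15 with scipy 1.17.1 and matplotlib 3.10.9 made the remaining values and plots.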

Additional observations from a re-analysis of the deposited data

How the results depend on the processing

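The log2 change of Tgfbr1 was above 0 in 10 of 16 alternatives and below 0 in 6. With 1 library left out its lowest value was −0.75 (aged replicate 1 absent) and its highest 0.64 (aged replicate 3 absent), and it was −0.047 without young replicate 3. It was −0.082 with equal medians, −0.59 with array weights (limma adjusted p = 0.0896), −0.29 with GC and length trends removed and aged replicate 1 left out, and −0.99 with equal medians and that library left out. The count of genes past 5% ran from 0 to 15 with 1 library left out, above 0 only without aged replicate 1. It was 15 with array weights, 6 with GC and length trends removed and 9 with equal medians, the last pair without aged replicate 1. For the 12 tested pathway genes the counts were 0 to 3 with 1 library left out, 2 with array weights (Cdkn1a and Cdkn2b), 2 with trends removed (Cdkn1a and Gadd45b) and 3 with equal medians (Cdkn1a, Myc and Gadd45b), these last without aged replicate 1.

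The replicate numbers are not stated to pair the samples. Deviations of same-numbered samples from their group means correlated at r = 0.271, 0.0908 and 0.408 across genes. Those of differently numbered samples correlated at −0.348 to 0.254, so the ranges overlapped. With the replicate block the log2 change of Tgfbr1 was 0.12 (SE 0.464) and 0 genes passed.

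With equal library medians, the log2 change reversed for Rbl1 −0.17, E2f4 −0.14, Myc −0.0044, Gadd45b −0.13, Gadd45a −0.12, Mapk11 −0.091, Mapk13 −0.16, Pik3r1 −0.16, Rb1 −0.19 and H2-D1 −0.18. With array weights, the log2 change reversed for Rbl1 −0.052, Myc −0.71, Gadd45b −0.55, Gadd45a −0.014, Mapk12 0.40, Pik3r1 −0.29, Rb1 −0.29, Il1a −0.44, Rela 0.22 and H2-T22 0.36. With GC and length trends removed, the log2 change reversed for Gadd45b −0.0078 and Gadd45a −0.041. With those trends removed and aged replicate 1 left out, the log2 change reversed for Myc −0.88, Gadd45b −0.90, Gadd45a −0.24, Gadd45g −0.069, Mapk12 0.26, Il1a −0.42, Rela 0.057 and H2-T22 0.37. With equal medians and aged replicate 1 left out, the log2 change reversed for Rbl1 −0.32, Myc −0.99, Gadd45b −0.76, Gadd45a −0.30, Mapk12 0.27, Pik3r1 −0.59, Rb1 −0.59, Il1a −0.85, Rela 0.10 and H2-T22 0.27.

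Removing 1 library turned the sign of other named genes as well, within these ranges of log2 change: Rbl1 −0.087 to 0.14, E2f4 −0.064 to 0.29, Cdkn2b −0.029 to 0.89, Myc −0.75 to 0.81, Gadd45b −0.52 to 0.47, Gadd45a −0.064 to 0.34, Mapk11 −0.061 to 0.45, Mapk12 −0.76 to 0.50, Mapk13 −0.11 to 0.25, Pik3r1 −0.36 to 0.29, Rb1 −0.35 to 0.24, Il1a −0.62 to 1.99, Rela −0.27 to 0.33, H2-T22 −0.47 to 0.50 and H2-D1 −0.25 to 0.57. The cause of these shifts was not tested. With 2 samples in a group the remaining spread is assumed equal between groups, and the unknown depth gives no counting interval.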
